A study of Mus musculus with 19 samples.

Results

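The common gamma chain family was examined in the bulk RNA of 19 primary p53/MCA sarcomas from mice. The 10 genes, taken as a named list of 48795 gene IDs in the table, were *Il2rg*, *Il2rb*, *Il7*, *Il7r*, *Il15*, *Il15ra*, *Il4ra*, *Il21r*, *Il2* and *Il4*. The rule takes them by symbol and uses no measured value. Of these, 8 of 10 were detected in all 19 tumors, and *Il2* and *Il4* were at the lowest value of the table in most tumors.

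The tumors came from 11 *Rag2*-/- mice and 8 *Rag2*+/- littermates. Mice of both genotypes received an adenoviral vector for Cas9 and a *Trp53* guide in the gastrocnemius at 6 to 10 weeks of age, and then 300 µg of the carcinogen 3-methylcholanthrene (MCA). They had no further treatment, and tumors were taken at 70 to 150 mm3. *Trp53* editing and MCA exposure were thus shared by both groups, and the adenovirus gave transient rather than lasting Cas9. Mice without *Rag2* cannot rearrange antigen receptor genes and lack mature T and B cells, while NK cells, other innate lymphoid cells and myeloid cells remain. Male and female mice were used, and sex entered only an alternative fit, through the level of *Xist*, an RNA made from the inactive X chromosome.

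The common gamma chain, the product of *Il2rg*, is a receptor subunit shared by the receptors for IL-2, IL-4, IL-7, IL-9, IL-15 and IL-21. Each cytokine binds a complex of this chain with its own partners, and the complex signals through the kinases JAK1 and JAK3 to STAT proteins. T cells, B cells and NK cells depend on these cytokines for their development and survival. Myeloid cells also carry the gamma chain and the IL-4 receptor, and IL-15 is shown to lymphocytes on the surface of other cells by IL-15Rα.

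Values are the authors' upper-quartile normalized FPKM (fragments per kilobase of transcript, scaled to library size), as log2 after 0.1 was added. They are called log2 levels below, and −3.32 is the lowest one, which is taken as no fragment counted. FPKM are per length, so the levels of different genes can be set side by side. Estimated depth was 24.9 to 33.8 M fragments per tumor, except for 5.23 M in the *Rag2*-/- tumor S41. The genotype labels were checked against lymphocyte genes. Of 10 T cell genes, 7 were lower in *Rag2*-/- tumors with an adjusted p under 0.05 (limma), and *Cd3e*, a chain of the T cell receptor complex, was at −3.32 in all 11. The summed normalized FPKM of the T cell genes was 3.16 to 8.87 in *Rag2*-/- and 15.3 to 57.1 in *Rag2*+/- tumors. Of 5 B and plasma cell genes tested, 2 were lower by the same test, *Jchain* with a log2 difference of −7.30 and *Cd79a* with one of −2.27. The lists for other innate lymphoid cells, macrophages, dendritic cells, neutrophils, mast cells, fibroblasts and endothelial cells had 0 genes with an adjusted p under 0.05. An unadjusted p under 0.05, which 15.4% of all genes tested had in either direction, was found for 2 of 6 innate lymphoid, 1 of 8 macrophage and 1 of 4 endothelial genes and for 0 genes of the other lists named. *Rag2* itself did not separate the groups. Its log2 level had a median of −0.16 (range −2.05 to 0.36) in tumors labelled *Rag2*-/- and −1.13 (range −2.33 to −0.57) in tumors labelled *Rag2*+/-. A gene-level value cannot tell which stretch of *Rag2* the RNA came from, and the gene shares 208 of 3424 exonic bases with the opposite-strand gene *B230118H07Rik*.

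None of the gamma chain genes separated the genotypes. Of the 8 genes tested by limma, 0 had an adjusted p under 0.05, against 0.132% of all 16663 genes tested, and 0 had an unadjusted p under 0.05, against 15.4%. The 22 genes called were all lower in *Rag2*-/- tumors. No gamma chain gene had values in 1 genotype that all lay above those of the other, which 0.084% of tested genes did. The median difference (*Rag2*-/- minus *Rag2*+/-) was 0.21 on the log2 scale over the 8 genes tested, and 0.07 over all genes tested. In bulk tumor RNA, fewer cells of a type and less RNA per cell cannot be told apart.

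**Figure D1:**
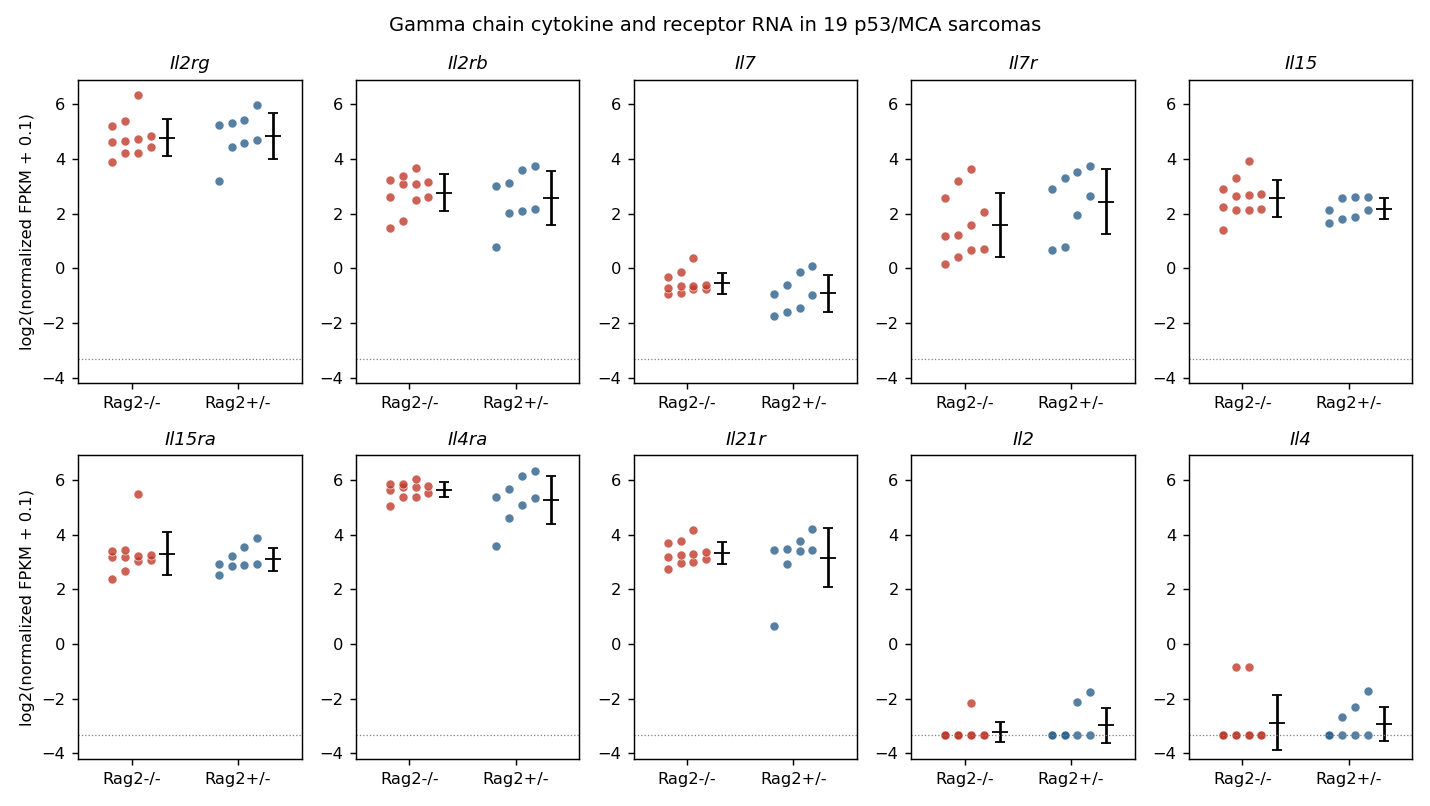
Log2(normalized FPKM + 0.1) of each of the 10 genes in 11 *Rag2*-/- (red) and 8 *Rag2*+/- (blue) tumors, 1 point per tumor. Black bars are mean ± SD, and the dotted line is the lowest value, −3.32. The genotypes overlap in every panel, and *Il2* and *Il4* lie on the dotted line in most tumors.

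The upstream sequences of 4 genes are shown because they belong to the shared chain and to 3 of the specific receptor chains, of which *Il4ra* and *Il21r* are neighbours in the genome. They are the 250 bases or fewer before the start, in GRCm38.p6 from RefSeq, without any base inside the GENCODE gene. Capitals mark CCGGAAG, the core letters bound by ETS factors, looked for on both strands and chosen after the sequences had been viewed.
Il2rg, chrX:101268256-101268505, minus strand: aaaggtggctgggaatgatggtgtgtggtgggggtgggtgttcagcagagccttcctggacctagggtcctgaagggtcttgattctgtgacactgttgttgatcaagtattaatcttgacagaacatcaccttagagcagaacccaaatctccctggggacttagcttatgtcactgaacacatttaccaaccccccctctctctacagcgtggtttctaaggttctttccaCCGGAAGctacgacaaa
Il15ra, chr2:11705043-11705289, plus strand: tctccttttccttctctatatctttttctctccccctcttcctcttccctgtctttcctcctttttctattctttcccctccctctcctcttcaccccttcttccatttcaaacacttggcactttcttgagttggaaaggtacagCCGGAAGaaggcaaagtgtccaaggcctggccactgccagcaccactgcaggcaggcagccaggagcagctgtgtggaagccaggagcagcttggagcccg
Il4ra, chr7:125552021-125552119, plus strand: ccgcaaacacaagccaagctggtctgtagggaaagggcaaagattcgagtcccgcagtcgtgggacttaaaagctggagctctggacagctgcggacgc
Il21r, chr7:125603179-125603428, plus strand: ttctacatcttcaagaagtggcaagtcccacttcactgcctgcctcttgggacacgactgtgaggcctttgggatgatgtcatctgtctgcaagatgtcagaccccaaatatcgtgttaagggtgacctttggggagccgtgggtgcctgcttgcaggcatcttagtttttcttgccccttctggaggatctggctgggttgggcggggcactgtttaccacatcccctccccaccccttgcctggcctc
The letters CCGGAAG begin at position −17 before the *Il2rg* start and at position −104 before the *Il15ra* start. The search covered the 250 bases before each RefSeq start, including bases inside the GENCODE gene that are not shown, and 6.91% of 32851 such windows hold these letters. The letters TTCNNNGAA, to which several STAT proteins bind and which 7.02% of such windows hold, are not in the 4 sequences shown on either strand. They occur once at position −142 before the *Il7r* start, in bases inside the GENCODE gene. Upstream of *Il4*, TTC and GAA spaced by 4 bases, as STAT6 binds them, occur at position −167 (5.85% of windows), and GAAA repeated after 2 bases, as in interferon-stimulated response elements, occurs at position −190 on the opposite strand (2.98% of windows). RefSeq upstream sequences were at hand for 7 of the 10 genes, and *Il15*, *Il2rb* and *Il7* had none.

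*Il2rg*, the shared chain (ENSMUSG00000031304, chrX:101264378-101268255, minus strand, GRCm38), was the second most abundant gene of the family. Its log2 level had a lowest value of 3.89, a median of 4.66 and a highest value of 6.34 in *Rag2*-/- tumors, and 3.20, 4.97 and 5.96 in *Rag2*+/- tumors. The highest level of all was that of the *Rag2*-/- tumor S51 and the lowest that of the *Rag2*+/- tumor S56, so that each genotype held an extreme. The means were 4.78 ± 0.68 (SD, n = 11) and 4.86 ± 0.84 (SD, n = 8). The difference of −0.08 on the log2 scale had a 95% interval of −0.76 to 0.60 (limma adjusted p = 0.902, two-sided exact permutation p = 0.823). It ran from −0.32 without S56 to 0.078 without the *Rag2*+/- tumor S55. *Il2rg* shares 728 of 2387 exonic bases with the same-strand gene *Gm20489*, which was at −3.32 in all tumors.

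*Il2rb*, the β chain of the IL-2 and IL-15 receptors (ENSMUSG00000068227, chr15:78479256-78495271, minus strand), did not differ beyond the spread between tumors. Its lowest, median and highest log2 levels in *Rag2*-/- tumors were 1.47, 3.07 and 3.67. Those in *Rag2*+/- tumors were 0.80, 2.60 and 3.73. S48 and S50 lay lowest of the *Rag2*-/- tumors, and the other 9 were at 2.49 or above. The means of 2.77 ± 0.68 (SD, n = 11) and 2.57 ± 0.98 (SD, n = 8) differed by 0.20 (95% interval −0.55 to 0.96, limma adjusted p = 0.755, exact permutation p = 0.599). Its sign turned without the *Rag2*+/- tumor S56, where it was −0.049 (exact permutation p = 0.886).

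*Il7r*, the α chain of the IL-7 receptor, which TSLP also uses (ENSMUSG00000003882, chr15:9505788-9530176, minus strand), had the widest spread among tumors of the genes detected in every tumor. Its lowest, median and highest log2 levels were 0.17, 1.24 and 3.65 in *Rag2*-/- tumors, and 0.68, 2.78 and 3.74 in *Rag2*+/- tumors. S46 and S51 were the highest *Rag2*-/- tumors, and the *Rag2*+/- tumors S53 and S56 lay below the *Rag2*-/- median. The means of 1.59 ± 1.16 (SD, n = 11) and 2.44 ± 1.20 (SD, n = 8) differed by −0.85 (95% interval −1.92 to 0.22, limma adjusted p = 0.385, exact permutation p = 0.134).

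*Il4ra*, the α chain of the receptors for IL-4 and IL-13 (ENSMUSG00000030748, chr7:125552120-125579474, plus strand), was the most abundant gene of the family. Its lowest, median and highest log2 levels were 5.06, 5.76 and 6.05 in *Rag2*-/- tumors, a narrow band. The *Rag2*+/- tumors were at 3.60, 5.36 and 6.33 by the same measures, with S56 lowest and S55 highest, and they spanned all the *Rag2*-/- values. The means of 5.64 ± 0.28 (SD, n = 11) and 5.27 ± 0.87 (SD, n = 8) differed by 0.36 (95% interval −0.19 to 0.92, limma adjusted p = 0.450, exact permutation p = 0.217). It was 0.13 without S56 (exact permutation p = 0.553). *Il4ra* shares 571 of 6002 exonic bases with the antisense gene *Gm44876*, and whether counting used the strand is not given in the sources used here.

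*Il21r*, the specific chain of the IL-21 receptor (ENSMUSG00000030745, chr7:125603429-125633570, plus strand), begins 24.0 kb beyond the end of *Il4ra*. Its lowest, median and highest log2 levels were 2.75, 3.27 and 4.16 in *Rag2*-/- tumors, and 0.65, 3.43 and 4.20 in *Rag2*+/- tumors. The value of 0.65 belonged to S56, and the other 7 *Rag2*+/- tumors were at 2.93 or above. The means of 3.33 ± 0.41 (SD, n = 11) and 3.16 ± 1.08 (SD, n = 8) differed by 0.17 (95% interval −0.53 to 0.86, limma adjusted p = 0.787, exact permutation p = 0.747). Without S56 the difference was −0.19 (exact permutation p = 0.330).

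*Il15ra*, the α chain that holds IL-15 on the cell surface (ENSMUSG00000023206, chr2:11705290-11734317, plus strand), had lowest, median and highest log2 levels of 2.40, 3.19 and 5.49 in *Rag2*-/- tumors. The *Rag2*+/- values were 2.51, 2.91 and 3.88. The *Rag2*-/- tumor S51 stood at 5.49, and the next highest *Rag2*-/- tumor was S41 at 3.44. The means of 3.31 ± 0.79 (SD, n = 11) and 3.09 ± 0.44 (SD, n = 8) differed by 0.21 (95% interval −0.40 to 0.83, limma adjusted p = 0.687, exact permutation p = 0.589). Without S51 the difference was −0.0047 (exact permutation p = 0.979).

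Among the ligands, *Il15*, a cytokine needed by NK cells and memory CD8+ T cells (ENSMUSG00000031712, chr8:82331632-82403222, minus strand), was the most abundant. Its lowest, median and highest log2 levels were 1.39, 2.64 and 3.93 in *Rag2*-/- tumors, and 1.67, 2.12 and 2.63 in *Rag2*+/- tumors. S51 and S47 were the highest *Rag2*-/- tumors and S48 the lowest, so that the *Rag2*-/- values spanned all the *Rag2*+/- values. The means of 2.57 ± 0.68 (SD, n = 11) and 2.18 ± 0.38 (SD, n = 8) differed by 0.39 (95% interval −0.15 to 0.94, limma adjusted p = 0.420, exact permutation p = 0.162), and by 0.26 without S51.

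*Il7*, made mainly by stromal and epithelial cells (ENSMUSG00000040329, chr3:7569994-7613760, minus strand), was detected in every tumor at a low level. Its lowest, median and highest log2 levels were −0.95, −0.64 and 0.36 in *Rag2*-/- tumors, and −1.74, −0.95 and 0.08 in *Rag2*+/- tumors. The estimated number of *Il7* fragments was 12.6 in S41 and up to 143 in other tumors. The *Rag2*+/- tumors S52, S53, S54 and S59 lay below every *Rag2*-/- tumor, S59 at −0.98 by a narrow margin. The means of −0.55 ± 0.39 (SD, n = 11) and −0.92 ± 0.67 (SD, n = 8) differed by 0.37 (95% interval −0.18 to 0.92, limma adjusted p = 0.445, exact permutation p = 0.150). *Il7* shares 105 of 5664 exonic bases with the antisense gene *Gm16685*.

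The T cell cytokines *Il2* (ENSMUSG00000027720, chr3:37120523-37125959, minus strand) and *Il4* (ENSMUSG00000000869, chr11:53602982-53618669, minus strand) were at or near the lowest value in both genotypes. *Il2* was above it in 1 of 11 *Rag2*-/- tumors, S48 at −2.14, and in 2 of 8 *Rag2*+/- tumors, S54 at −2.10 and S59 at −1.75. These levels stand for about 4 fragments each. In the other 16 tumors, a count of 0 allows up to 3 fragments, which is 0.0894 to 0.223 normalized FPKM, or 0.546 in S41.

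*Il4* was above the lowest value in 2 of 11 *Rag2*-/- tumors, S46 at −0.82 and S47 at −0.85, each about 7 fragments. It was above it in 3 of 8 *Rag2*+/- tumors, S52 at −2.29, S58 at −2.68 and S59 at −1.70. The mean difference was −0.24 for *Il2* (exact permutation p = 0.334) and 0.04 for *Il4* (exact permutation p = 0.921). Neither cytokine was abundant enough to enter the limma fit, and the size of difference that could be detected at this depth was not tested. S48, with *Il2* fragments, and S46 and S47, with *Il4* fragments, are tumors of the genotype whose hosts lack T cells.

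The levels of the 8 genes detected in all tumors were ordered within each genotype. Neighbours in the order were compared over the same tumors by two-sided exact sign-flip permutation, with Benjamini-Hochberg adjustment over the 14 pairs. In *Rag2*-/- tumors the order was *Il4ra*, *Il2rg*, *Il21r*, *Il15ra*, *Il2rb*, *Il15*, *Il7r* and *Il7*. *Il4ra* exceeded *Il2rg* by 0.86 on the log2 scale (higher in 10 of 11 tumors, adjusted permutation p = 0.018), and *Il2rg* exceeded *Il21r* by 1.45 in 11 of 11 (adjusted permutation p = 0.0068). *Il21r*, *Il15ra*, *Il2rb* and *Il15* could not be told apart as neighbours (adjusted permutation p = 0.150 to 0.930). *Il15* exceeded *Il7r* by 0.98 in 10 of 11 tumors (adjusted permutation p = 0.018), and *Il7r* exceeded *Il7* by 2.14 in 11 of 11 (adjusted permutation p = 0.0068).

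In *Rag2*+/- tumors *Il4ra* and *Il2rg* were not told apart, with a difference of 0.42 and *Il4ra* higher in 5 of 8 tumors (adjusted exact permutation p = 0.182). *Il2rg* exceeded *Il21r* by 1.69 in 8 of 8 tumors (adjusted exact permutation p = 0.018), and *Il15* exceeded *Il7* by 3.10 in 8 of 8 (adjusted exact permutation p = 0.018). *Il21r*, *Il15ra*, *Il2rb*, *Il7r* and *Il15*, between them, did not differ as neighbours beyond their spread (adjusted exact permutation p = 0.150 to 0.930). *Il7r* stood above *Il15* in this genotype and below it in *Rag2*-/- tumors. The receptor chains for IL-4 and the shared chain were thus the most abundant in both genotypes, and *Il7* was the least abundant gene detected in every tumor.

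The genotype differences were computed again in the 15 tumors of the study's own RNA comparison, 8 *Rag2*-/- and 7 *Rag2*+/-, which leaves out S41, S46, S51 and S56. The mean of *Il7r* was then 1.24 ± 0.82 (SD, n = 8) in *Rag2*-/- and 2.68 ± 1.07 (SD, n = 7) in *Rag2*+/- sarcomas, a difference of −1.43 (exact permutation p = 0.015, limma adjusted p = 0.221). *Il2rg* was at 4.53 ± 0.42 (SD, n = 8) against 5.09 ± 0.55 (SD, n = 7), a difference of −0.57 (exact permutation p = 0.042, limma adjusted p = 0.228). Neither passed the adjusted threshold in this set, where 0.303% of 16513 genes did.

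These were 2 of the 8 genes tested, or 25.0%, with an unadjusted limma p under 0.05, close to the 20.6% of all genes tested in the 15 tumors. Both were lower in *Rag2*-/- tumors, the direction in which 9.96% of all genes had such a p. The 3 *Rag2*-/- tumors left out include S46 and S51, the 2 highest for *Il7r* and *Il2rg* in that genotype, and S56, left out of *Rag2*+/-, is the lowest *Rag2*+/- tumor for *Il2rg*, with *Il7r* at 0.77. The other 6 genes had differences between −0.16 and 0.31 in the 15 tumors, with exact permutation p of 0.278 or more.

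**Figure D2:**
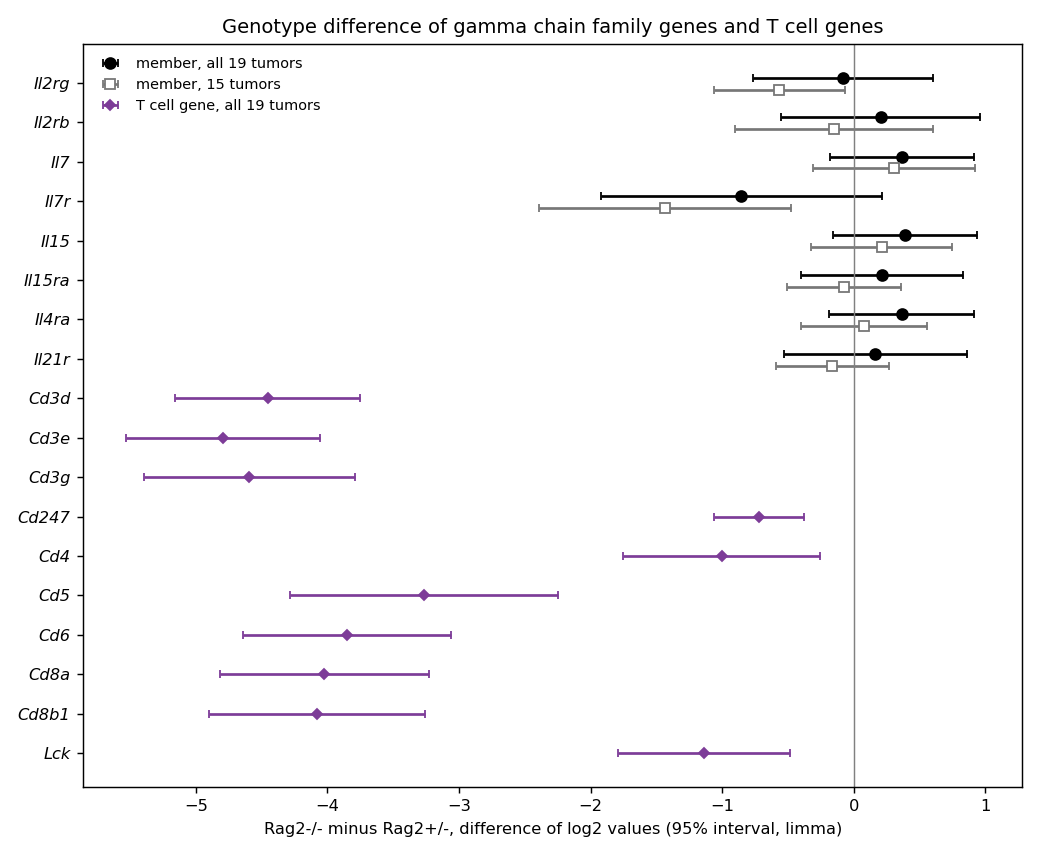
Difference of log2 levels, *Rag2*-/- minus *Rag2*+/-, with 95% intervals from limma, for the 8 gamma chain family genes tested (black circles, 19 tumors; open squares, 15 tumors) and the 10 T cell genes (purple diamonds, 19 tumors). All black intervals include 0, the *Il7r* and *Il2rg* intervals of the 15 tumors do not, and 7 of the T cell genes lie below −3.

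The receptor chains were next set beside lists of genes that mark cell types, within each genotype, since the genotypes form separate clusters for lymphocyte genes. Each list is given by the mean of its log2 levels, and 28 relations were computed, with permutation p adjusted over all 28 (all permutations for 8 tumors, 100000 random ones for 11). *Il2rb* followed the NK cell list. Pearson's r in *Rag2*-/- tumors was 0.931 (permutation p = 0.0001, adjusted p = 0.0019) and Spearman's rho 0.918 (permutation p = 0.0002, adjusted p = 0.0048). Without S48 and S50, those farthest from the list's median, r was 0.886 (adjusted permutation p = 0.037), while rho was 0.867 and no longer passed (adjusted permutation p = 0.126). With the median of the list in place of its mean, rho was 0.664 (adjusted permutation p = 0.149). The *Rag2*+/- tumors had r of 0.951 (exact permutation p = 0.0015, adjusted p = 0.0086) and rho 0.786 (exact permutation p = 0.028, adjusted p = 0.130). Without S52 and S56, r was 0.968, with an adjusted exact permutation p of 0.061 over 6 tumors.

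The T cell list moved with *Il2rb* in *Rag2*+/- tumors, with r of 0.962 (exact permutation p = 0.0002, adjusted p = 0.0019) and rho of 0.929 (exact permutation p = 0.0022, adjusted p = 0.012). The 8 tumors lay in 2 sets on that list, 4 of them at 0.94 or below and 4 at 1.92 or above. Without S55 and S56, r was 0.969 (adjusted exact permutation p = 0.091). In *Rag2*-/- tumors, where the list was at −2.23 to −1.38, r was 0.375 (permutation p = 0.256, adjusted p = 0.377) and rho 0.064 (permutation p = 0.860, adjusted p = 0.935). The difference between the genotypes in these relations was not tested. Both lists moved with *Il2rb* in *Rag2*+/- tumors, and their parts in its level there cannot be told apart.

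The NK cell list had higher values in *Rag2*-/- tumors, none of which passed the adjusted threshold. Of its 9 genes, 5 had an unadjusted limma p under 0.05, all higher in *Rag2*-/- tumors, where 6.56% of all genes tested did so in that direction, and 0 had an adjusted p under 0.05. The median difference of the list was 1.02 on the log2 scale. The summed normalized FPKM of the list was 12.4 to 88.4 in *Rag2*-/- and 3.70 to 34.0 in *Rag2*+/- tumors. Its part in the level of *Il2rb* was not tested.

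**Figure D3:**
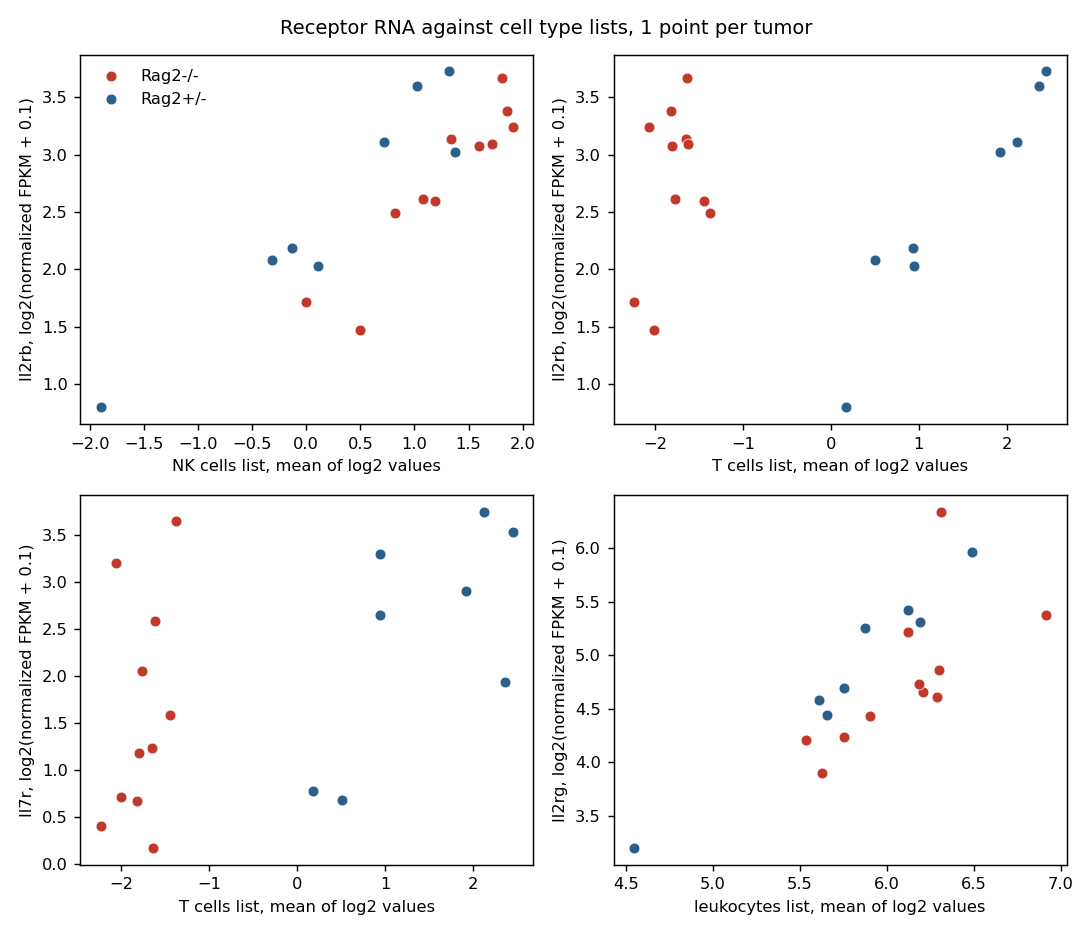
Log2 level of a receptor chain (vertical) against the mean log2 level of a cell type list (horizontal), 1 point per tumor, *Rag2*-/- red and *Rag2*+/- blue. *Il2rb* rises with the NK cell list in both genotypes, and on the T cell list the genotypes lie apart, at −2.23 to −1.38 and 0.18 to 2.45.

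*Il2rg* followed the leukocyte list, made of *Ptprc* (CD45), *Cd53*, *Laptm5* and *Coro1a*. Among *Rag2*+/- tumors r was 0.981 (exact permutation p = 0.0001, adjusted p = 0.0019) and rho 0.952 (exact permutation p = 0.0011, adjusted p = 0.011). Without S55 and S56, r was 0.913 (adjusted exact permutation p = 0.091). The *Rag2*-/- tumors had r of 0.684 (permutation p = 0.023, adjusted p = 0.072) and rho 0.855 (permutation p = 0.0017, adjusted p = 0.012). Without S46 and S50, rho was 0.767 and no longer passed (adjusted permutation p = 0.150). S51 had the highest *Il2rg* level without having the highest leukocyte list, which was that of S46.

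When the leukocyte list was added to the fit, a choice made after the data were seen, the genotype difference of *Il2rg* was −0.51 (limma p = 0.018) and that of *Il7r* −1.40 (limma p = 0.0028). Over all alternatives, the lowest limma adjusted p was 0.228 for *Il2rg* and 0.184 for *Il7r*, so that neither passed the adjusted threshold. With the skeletal muscle list in the fit instead, the differences were 0.045 for *Il2rg* (limma p = 0.903) and −0.30 for *Il7r* (limma p = 0.566). The leukocyte list itself was at 5.53 to 6.92 in *Rag2*-/- and 4.55 to 6.49 in *Rag2*+/- tumors.

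*Il7r* was compared with T cell and innate lymphoid cell lists. With the T cell list r was 0.665 in *Rag2*+/- tumors (exact permutation p = 0.086, adjusted p = 0.172, rho 0.619 with exact permutation p = 0.115) and 0.359 in *Rag2*-/- tumors (permutation p = 0.275, adjusted p = 0.385, rho 0.409 with permutation p = 0.215). With the innate lymphoid list r was 0.966 in *Rag2*+/- tumors (exact permutation p = 0.0003, adjusted p = 0.0019) and rho 0.952 (exact permutation p = 0.0011, adjusted p = 0.011). Without S53 and S56, r was 0.949 (adjusted exact permutation p = 0.061). It was 0.402 in *Rag2*-/- tumors (permutation p = 0.224, adjusted p = 0.377). Without S46 and S51 it was 0.809 there (adjusted permutation p = 0.061). With the median of the list in place of its mean, r was 0.564 in *Rag2*+/- tumors (adjusted exact permutation p = 0.297). It was 0.757 in *Rag2*-/- tumors (adjusted permutation p = 0.031), so the genotype with the stronger relation changed with the summary. *Rora*, of that list, is also expressed in skeletal muscle.

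*Il21r* had r of 0.732 with the T cell list in *Rag2*+/- tumors (exact permutation p = 0.0022, adjusted p = 0.010), but rho of 0.690 (exact permutation p = 0.069, adjusted p = 0.216). Without S55 and S56 r was 0.632 over 6 tumors (adjusted exact permutation p = 0.484). It was −0.067 in *Rag2*-/- tumors (permutation p = 0.843, adjusted p = 0.875). In that genotype *Cd3e* was at −3.32 in 11 tumors and *Cd6* in 9, so the T cell list hardly measures T cells there. A relation of *Il2rb*, *Il7r* or *Il21r* to T cells could therefore not be seen in *Rag2*-/- tumors. *Il4ra* had r of 0.815 with the macrophage list in *Rag2*+/- tumors (exact permutation p = 0.022, adjusted p = 0.072), which fell to −0.070 without S55 and S56, and 0.386 in *Rag2*-/- tumors (permutation p = 0.236, adjusted p = 0.377).

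*Il15* had r of 0.747 with the skeletal muscle list in *Rag2*-/- tumors (permutation p = 0.011, adjusted p = 0.043), with rho of 0.518 (permutation p = 0.106, adjusted p = 0.293). Without S48 and S51, r was 0.147 (adjusted permutation p = 0.964), so that this relation rests on those tumors. It was −0.031 in *Rag2*+/- tumors (exact permutation p = 0.940). Of 8 skeletal muscle genes, 7 had an unadjusted limma p under 0.05 and lower values in *Rag2*-/- tumors, where 8.85% of all genes tested did so in that direction, with 0 passing the adjusted threshold. The summed normalized FPKM of the muscle list ran from 286 to 89943 in *Rag2*-/- and from 1654 to 137084 in *Rag2*+/- tumors. With that list as a covariate the *Il15* difference was 0.66 (limma p = 0.021, adjusted p = 0.996) in place of 0.39.

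The interferon lists were compared with *Il15* and *Il15ra*, which are known as interferon-responsive genes. *Il15* had r of 0.648 with the type I interferon list in *Rag2*-/- tumors (permutation p = 0.031, adjusted p = 0.078, rho 0.636) and 0.079 in *Rag2*+/- tumors (exact permutation p = 0.841, adjusted p = 0.875). *Il15ra* had r of 0.849 with the interferon gamma list in *Rag2*-/- tumors (permutation p = 0.058, adjusted p = 0.125), which was −0.083 without S48 and S51. It was 0.728 in *Rag2*+/- tumors (exact permutation p = 0.040, adjusted p = 0.092). S51 was highest for *Il15* and *Il15ra* and had an interferon gamma list of 6.56, against 2.54 to 3.72 in the other *Rag2*-/- tumors. All 8 type I interferon genes had higher values in *Rag2*-/- tumors with an unadjusted limma p under 0.05, and 0 passed the adjusted threshold, with a median difference of 1.02. Of all genes tested, 6.56% had such a p in that direction.

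*Il7* followed neither the fibroblast list, with r of 0.116 in *Rag2*-/- (permutation p = 0.721) and 0.110 in *Rag2*+/- tumors (exact permutation p = 0.790), nor the skeletal muscle list, with r of −0.376 (permutation p = 0.249) and 0.226 (exact permutation p = 0.576). These 4 relations had adjusted p of 0.377 or more. *Il21r* had r of −0.318 with the B and plasma cell list in *Rag2*-/- tumors (permutation p = 0.341) and 0.685 in *Rag2*+/- tumors (exact permutation p = 0.0295, adjusted p = 0.078), where rho was 0.476 (exact permutation p = 0.243) and r with the median of the list was 0.239 (exact permutation p = 0.521). *Il15ra* had r of 0.524 with the type I interferon list in *Rag2*-/- tumors (permutation p = 0.096, adjusted p = 0.179), which was 0.029 without S46 and S51, and 0.405 in *Rag2*+/- tumors (exact permutation p = 0.322, adjusted p = 0.430).

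The tumors that stood high or low did so for several genes of the family. S56 was the lowest of the *Rag2*+/- tumors for *Il2rg*, *Il2rb*, *Il4ra* and *Il21r* and had the lowest leukocyte list of all 19 tumors, at 4.55, with the highest skeletal muscle list, at 13.7. S55 was the highest *Rag2*+/- tumor for *Il2rg*, *Il2rb*, *Il4ra*, *Il15ra* and *Il21r*, with the highest leukocyte list of its genotype, at 6.49. S51 was the highest *Rag2*-/- tumor for *Il2rg*, *Il15* and *Il15ra*. *Il7* did not share these extremes, and its highest levels were those of S46 and S60.

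**Figure D4:**
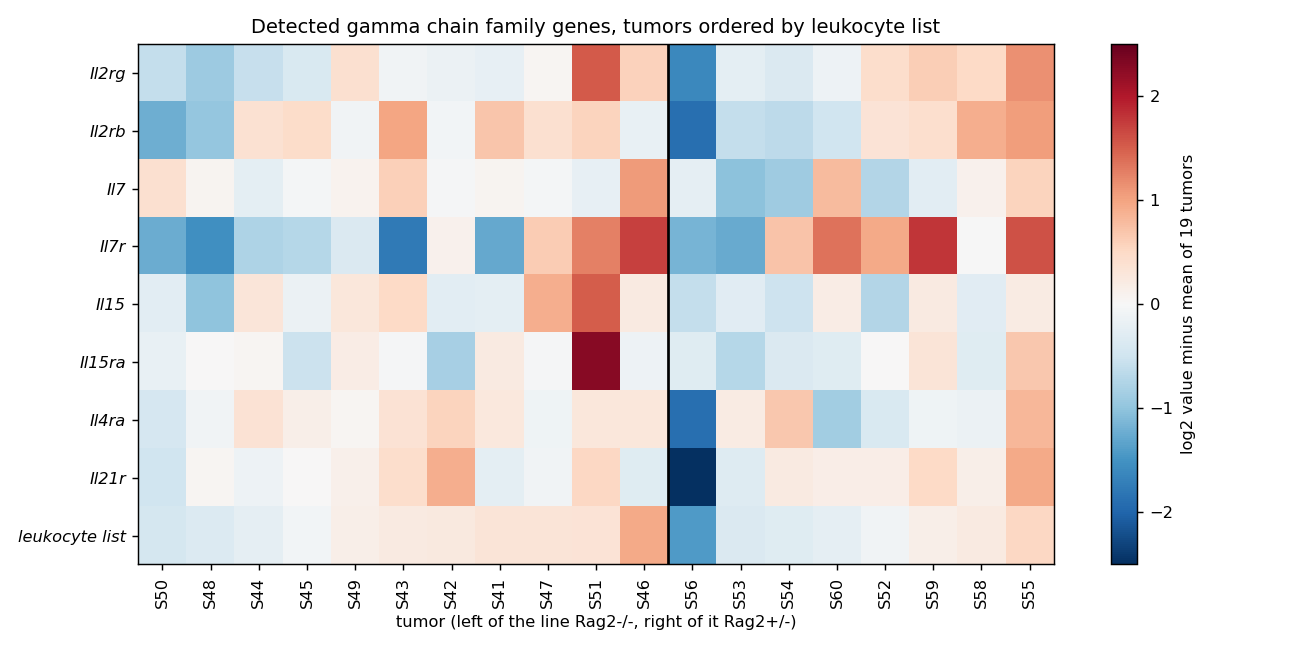
Log2 level of the 8 family genes detected in every tumor and of the leukocyte list, less the mean of each row over 19 tumors, with tumors ordered by the leukocyte list within genotype. S56 is low for *Il2rg*, *Il2rb*, *Il4ra* and *Il21r*, S51 is high for *Il15ra*, and *Il7r* varies from tumor to tumor in both genotypes.

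The genes with the most similar pattern over the 19 tumors were found by Spearman's rho after the mean of each genotype was taken off. They describe these tumors, which share host tissue and normalization, and no p is given. For *Il2rg* they were *Il10ra* (rho 0.956), *Casp1* (0.953) and *Irf8* (0.932), all expressed in leukocytes. For *Il2rb* they were *Prf1* (0.933), which encodes perforin and is also in the NK cell list, *Slfn1* (0.933) and *H2-Q4* (0.909). For *Il7r* they were *Csf2rb* (0.967), *Csf2rb2* (0.963) and *Clec7a* (0.954), the last a receptor of myeloid cells. *Csf2rb* encodes the β chain of the GM-CSF, IL-3 and IL-5 receptors, and *Csf2rb2* a β chain of the IL-3 receptor. *Csf2rb* and *Csf2rb2* are close copies, so reads could be shared between them.

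The most similar genes had lower rho for the other members. They were *Ero1l* (rho 0.860), *Cflar* (0.830) and *Cpq* (0.826) for *Il4ra*, and *Relb* (0.802), *Slc2a6* (0.795) and *Ccl4* (0.772) for *Il21r*. For *Il15* they were *Dmkn* (0.805), *Fam83a* (0.786) and *Mrap* (0.771), and for *Il15ra* *Polr3c* (0.777), *Mdrl* (0.767) and *Tph1* (0.756). For *Il7* they were *Lfng* (0.791), *Kmt5c* (0.774) and *Hps5* (0.767). None of the 3 most similar genes was shared between 2 of the members.

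Of 9 further ligands and receptors of the family and its relatives, 5 were abundant enough to be tested by limma, and 0 had an adjusted or an unadjusted p under 0.05. *Crlf2*, which pairs with the IL-7 receptor α chain to bind TSLP, was at 4.77 ± 0.36 (SD, n = 11) in *Rag2*-/- and 4.59 ± 0.55 (SD, n = 8) in *Rag2*+/- tumors. *Il13ra1*, which pairs with the IL-4 receptor α chain, was at 4.81 ± 0.37 (SD, n = 11) and 4.40 ± 0.86 (SD, n = 8). Both were at a level like that of *Il2rg*. *Il2ra*, the α chain of the high-affinity IL-2 receptor, was low, at 0.03 ± 0.66 (SD, n = 11) and 0.31 ± 0.85 (SD, n = 8). The other tested genes were *Tslp*, with a difference of 0.86, and *Il13ra2*, with 0.33. *Il9* was at the lowest value in all 19 tumors, *Il21* in all 11 *Rag2*-/- and in 6 of 8 *Rag2*+/- tumors, and *Il13* in 10 of 11 and 7 of 8. *Il9r* was above it in 7 of 11 and 6 of 8 tumors.

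Downstream of the receptors, 0 of 6 signaling genes had an adjusted or an unadjusted limma p under 0.05. *Jak1* (5.64 ± 0.22 (SD, n = 11) against 5.81 ± 0.26 (SD, n = 8)) was more abundant than *Jak3* (2.48 ± 0.43 against 2.58 ± 0.18), the kinase that binds the gamma chain. *Stat3*, *Stat5a* and *Stat6* differed by −0.03, −0.19 and 0.22, and *Stat5b* by −0.88 (limma adjusted p = 0.371). Of 8 target and inhibitor genes, 0 had an adjusted p under 0.05 and 1 an unadjusted one, a share no higher than the 15.4% of all genes tested. That gene, *Cish*, an inhibitor induced by STAT5, had a log2 level of 0.93 ± 0.71 (SD, n = 11) in *Rag2*-/- against 2.10 ± 1.14 (SD, n = 8) in *Rag2*+/- sarcomas. It differed by −1.17 with an unadjusted limma p of 0.0092 and an adjusted p of 0.314. The other 7, *Socs1*, *Socs2*, *Socs3*, *Bcl2*, *Pim1*, *Pim2* and *Osm*, differed by −0.32 to 0.40. Of 8 genes that macrophages express in response to IL-4, among them *Retnla* and *Mrc1*, 0 had an adjusted or an unadjusted limma p under 0.05, with differences of −1.30 to 0.85.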

How the data were processed

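The authors deposited 1 table of log2 values of upper-quartile normalized FPKM for 48795 Ensembl gene IDs, of which 48349 were given symbols. The lowest value showed that 0.1 had been added. The paper's methods name Omicsoft Array Studio with Ensembl R86 models, and the submitters' processing notes name Trimmomatic 0.36, an aligner and HTSeq. Which of these made the table is not given in the sources used here. Libraries were paired-end. All columns were matched to a tumor by library code.

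Genes with a normalized FPKM, after 0.1 was taken off, above 0.1 in at least 8 tumors were tested by limma 3.58.1 (R 4.3.3) with an intensity trend, two-sided, with Benjamini-Hochberg adjustment over all 16663 genes. On simulated data on 16663 genes, limma recovered 78% of log2 differences of 2 and 98% of 4, and 5.88% of its calls were false. Each gene was drawn on its own from a normal distribution. Differences as small as those of the members were not simulated, so the recovery of such differences is not known. Single genes were also tested by exact permutation over 75582 relabelings. Fold changes on this scale understate those of low genes. Depth was estimated from the steps of low values of single-transcript genes (GENCODE vM21, longest transcript). Of these values, 74.4% to 90.6% per tumor were whole fragments within 0.05. The limits for tumors without a counted fragment cover counting error only. The limma intervals of the genotype differences come from the spread between tumors. Other computations used Python 3.11.15 and scipy 1.17.1.

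The named genes were the 10 members, the genes of 18 lists, and the 3 tested genes most like each member. Single results for some list genes are not reported here. Members and lists were chosen with earlier results of these data known. The alternatives were the 15 tumors of the study's comparison, each tumor left out, pseudocounts of 1 and 0.01, quantile and median scaling, other filters, variance models, and covariates, of which the leukocyte list was added after seeing the data. The p-values measure the spread between these tumors.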

Additional observations from a re-analysis of the deposited data

Results flagged for a closer look

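*Il21r* in the *Rag2*+/- tumor S56, at a log2 level of 0.65, lay far below the other *Rag2*+/- tumors. Its gap to the nearest tumor was 0.643 of the range of the 8 tumors, above Dixon's critical value of 0.526. The check was made for 10 genes in the *Rag2*+/- tumors and chance marks about 5% of groups. It was not made in the *Rag2*-/- tumors, whose number is above the limit for it. S56 also had the lowest leukocyte list of all 19 tumors, at 4.55, and the part of that in the *Il21r* value was not tested.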

How the results depend on the processing

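The number of genes called was 22 with all 19 tumors, 50 in the 15 tumors of the study, 4 with a mean log2 level above 0 required, 34 without a filter, 51 with array weights and 37 with the leukocyte list as a covariate. It was 19 to 41 with each tumor left out, the 41 being without the *Rag2*-/- tumor S51. None of the 8 genes tested was called under an alternative in which it was tested, 30 for *Il7* and 31 for each of the others, and *Il2* and *Il4* were tested by limma without a filter only and were not called there. The lowest limma adjusted p was 0.184. In the 15 tumors the differences were −0.57 for *Il2rg* and −1.43 for *Il7r*, now with a p under 0.05, and −0.15 for *Il2rb*, −0.074 for *Il15ra*, −0.16 for *Il21r* and −0.16 for *Il4*, now below 0, with *Il15* at 0.21 and *Il4ra* at 0.079. Array weights gave −1.34 for *Il7r*, with limma p = 0.0039, −0.04 for *Il15ra*, −0.12 for *Il21r*, −0.43 for *Il2rg*, 0.12 for *Il2rb* and 0.010 for *Il4ra*. With *Xist* as a covariate *Il2rg* was at 0.022, *Il7r* at −0.64, *Il2rb* at 0.096, *Il15ra* at 0.33, *Il4ra* at 0.20 and *Il21r* at 0.068. With the muscle list *Il2rg* was at 0.045, *Il15* at 0.66, *Il7r* at −0.30, *Il15ra* at 0.50, *Il2rb* at 0.12, *Il4ra* at 0.089 and *Il21r* at 0.010. The leukocyte list gave −0.51 for *Il2rg*, −0.21 for *Il2rb*, −1.40 for *Il7r*, −0.20 for *Il21r*, 0.24 for *Il7*, 0.22 for *Il15*, 0.087 for *Il15ra* and 0.095 for *Il4ra*. A pseudocount of 0.01 gave −0.33 for *Il4*, and one of 1 gave 0.13 for *Il7*. The cause was not tested.

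With each tumor left out, the difference ranged from −0.32 to 0.078 for *Il2rg*, −0.049 to 0.37 for *Il2rb*, 0.25 to 0.51 for *Il7*, −1.10 to −0.67 for *Il7r*, 0.26 to 0.51 for *Il15*, −0.0047 to 0.33 for *Il15ra*, 0.13 to 0.51 for *Il4ra*, −0.19 to 0.31 for *Il21r*, −0.35 to −0.07 for *Il2* and −0.17 to 0.21 for *Il4*. The sign turned for *Il2rg* without S48, S55 or S59, for *Il2rb* and *Il21r* without S56, for *Il15ra* without S51 and for *Il4* without S46, S47, S53, S54, S55, S56 or S60. *Il4ra* was lowest without S56 and *Il15* without S51. The exact permutation p was 0.038 for *Il7* without the *Rag2*+/- tumor S60 and 0.045 for *Il15* without the *Rag2*-/- tumor S48.

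With the median of a list, r was 0.757 in *Rag2*-/- and 0.564 in *Rag2*+/- tumors for *Il7r* and innate lymphoid genes, 0.035 and 0.622 for *Il21r* and T cell genes, 0.209 and 0.239 for *Il21r* and B cell genes and −0.057 and 0.392 for *Il7* and fibroblast genes. In *Rag2*-/- tumors it was 0.211 for *Il2rb* and T cell genes and 0.336 for *Il15ra* and type I interferon genes. Without the 2 tumors farthest from the median of a list, r in *Rag2*+/- tumors was 0.913 for *Il2rg* and leukocytes, 0.968 for *Il2rb* and NK cells, 0.969 for *Il2rb* and T cells, 0.949 for *Il7r* and innate lymphoid cells, 0.632 for *Il21r* and T cells, −0.070 for *Il4ra* and macrophages, −0.473 for *Il15* and −0.038 for *Il15ra* with type I interferon genes, 0.414 for *Il7r* and T cells, −0.432 for *Il7* and fibroblasts and −0.022 for *Il7* and muscle. In *Rag2*-/- tumors it was −0.176 for *Il7r* and 0.095 for *Il21r* with T cells, 0.147 for *Il15* and muscle, 0.809 for *Il7r* and innate lymphoid cells, −0.083 and 0.029 for *Il15ra* with interferon gamma and type I interferon genes, −0.146 for *Il21r* and B cells and −0.043 for *Il7* and fibroblasts. Of the 5 relations whose rho passed the adjusted threshold, 0 did so without those 2 tumors (adjusted permutation p 0.126 to 0.206). With the median of the list, *Il2rg* and leukocytes in *Rag2*-/- tumors still passed (adjusted permutation p = 0.047) and the other 4 did not (0.122 to 0.258). *Il7r* and innate lymphoid genes in *Rag2*-/- tumors passed with this summary only, with rho of 0.818 (adjusted permutation p = 0.047). Leaving out tumors also lowers the number behind each p.

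No paired analysis was possible because no label ties tumors of both genotypes together, and replicate numbers were given in accession order. Depth limits *Il2* and *Il4*, with at most about 7 fragments in any tumor, and S41, with 5.23 M fragments.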
